A study of Homo sapiens with 8 samples.

Results

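The epidermal growth factor (EGF) receptor family, also called the ErbB family, was followed here through 10 genes taken by symbol from the 56832 gene rows of the count tables. They were the receptor genes EGFR, ERBB2 and ERBB3, the ligand genes AREG, EREG, HBEGF, TGFA, BTC and NRG1, and ERRFI1, which encodes an inhibitor of the receptors. All 10 symbols were present. The 8 total RNA libraries, depleted of ribosomal RNA, came from Nthy-ORI, an epithelial line derived from normal thyroid. All cultures were first starved of hormone for 24 h in charcoal-stripped serum. They then received vehicle (NaOH) for 6 h, 10 nM T3 (triiodothyronine, the active thyroid hormone) for 6 h, vehicle for 24 h or 10 nM T3 for 24 h, with 2 libraries in each of the 4 groups. Nothing in the labels says that the replicates were separate cultures, so the p-values describe the spread between libraries, which may be technical. One cell line was used, and the series asks how T3 acts through the thyroid hormone receptor TR-beta.

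ErbB receptors are membrane tyrosine kinases that work in pairs. Ligands are made as membrane-anchored precursors that proteases of the ADAM family cut free. AREG, TGFA and EGF bind EGFR, whereas HBEGF, EREG and BTC bind both EGFR and ERBB4, and neuregulins such as NRG1 bind ERBB3 and ERBB4. ERBB2 has no known ligand and ERBB3 has little kinase activity, so both signal mainly as partners of another receptor. Active receptors switch on the RAS-MAPK relay. ERRFI1, also known as MIG6, binds the kinase domain and is itself switched on by MAPK signalling. In thyroid follicular cells EGF is known as a mitogen that lowers differentiated functions.

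The promoter bases of ERRFI1, HBEGF and EGFR are shown as examples. ERRFI1 had the largest difference between the 24 h and the 6 h libraries under T3. HBEGF had the largest difference of the called ligands under vehicle, and EGFR had almost none under vehicle. No gene that was lower at 24 h is among them. They are RefSeq windows before the annotated start (build GRCh38.p14), 5′ to 3′, cut where an exon begins in GENCODE 29. Capitals mark GC boxes (GGGCGG, either strand), the only one of 5 searched motifs found in these windows.
ERRFI1 promoter, chr1:8026310-8026559, minus strand: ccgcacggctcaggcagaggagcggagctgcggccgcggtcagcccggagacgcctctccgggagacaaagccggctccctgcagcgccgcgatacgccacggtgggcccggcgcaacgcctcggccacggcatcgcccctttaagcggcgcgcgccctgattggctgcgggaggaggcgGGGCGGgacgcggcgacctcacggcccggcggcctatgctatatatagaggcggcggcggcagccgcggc
HBEGF promoter, chr5:140346632-140346853, minus strand: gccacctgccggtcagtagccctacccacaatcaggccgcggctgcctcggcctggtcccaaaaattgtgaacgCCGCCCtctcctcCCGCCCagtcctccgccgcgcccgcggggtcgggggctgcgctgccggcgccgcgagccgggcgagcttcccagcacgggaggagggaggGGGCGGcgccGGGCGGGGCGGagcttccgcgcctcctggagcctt
EGFR promoter, chr7:55018767-55019016, plus strand: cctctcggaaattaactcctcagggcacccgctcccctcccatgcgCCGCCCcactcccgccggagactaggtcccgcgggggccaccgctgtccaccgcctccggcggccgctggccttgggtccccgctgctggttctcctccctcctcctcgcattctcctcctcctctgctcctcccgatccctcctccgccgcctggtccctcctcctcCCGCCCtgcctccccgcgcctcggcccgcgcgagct
The windows of 250 bases held 1 GC box for ERRFI1, 5 for HBEGF and 2 for EGFR, and 42.6% of 35116 windows of that length in the table held at least 1. None of the 3 windows held a half-site of thyroid hormone receptors (AGGTCA, 12.1% of all windows), an AP-1 site (TGAGTCA, 4.20%), a TATA box (TATAAA, 10.7%) or an E-box (CACGTG, 6.34%), on either strand. Only these exact letters were searched. The ERRFI1 window holds the stretch tatatata near its end, a TATA-like variant that the search did not cover. GC content was 75.2%, 76.4% and 73.6%, above the median of 58.0% over all windows. EGFR has another window in the table, within the gene (chr7:55109589-55109838), which held 2 AP-1 sites and 2 TATA boxes and no GC box. Promoter entries were matched for 8 of the 10 genes. Of those not shown, the EREG window held 1 half-site of thyroid hormone receptors and 1 TATA box, and the AREG window 1 TATA box.

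Several features of the whole series touch the comparisons. Reads counted in genes came to between 2517983 and 8201606 a library, so 3 counts corresponded to between 0.366 and 1.19 CPM (counts-per-million of the gene total). The 6 h and the 24 h libraries stood far apart: the first principal component held 83.9% of the variance and separated them fully, and 64.5% of 14611 tested genes differed between the vehicle groups of the 2 times. The thyroid factor gene PAX8 was at 11.7 ± 2.51 CPM (SD, n = 2) with vehicle at 6 h and 134 ± 28.9 CPM at 24 h. CPS1, a urea cycle gene set down as a hepatocyte marker, was at 2858 ± 16.9 and 11.3 ± 2.87 CPM. The summed thyroid list of 11 genes lay between 27.4 and 43.4 CPM in the 6 h libraries and between 149 and 194 CPM in the 24 h libraries, and the summed hepatocyte list of 8 genes between 2866 and 3586 CPM and between 18.04 and 27.1 CPM. TG and TSHR, which define mature thyrocytes, had 0 counts in every 6 h library and at most 5 in a 24 h library, and of the hepatocyte list APOA1 and TTR had 0 in all 8. With vehicle, PAX8 made up most of the thyroid sum at 24 h and CPS1 most of the hepatocyte sum at 6 h. Other genes of these lists differed in direction. Under vehicle NKX2-1 and SLC5A5 had counts at 6 h and 0 at 24 h. For 24 h over 6 h under vehicle, HHEX was at log2 -0.27 and did not pass. FOXE1 (0.73) and, of the hepatocyte list, SERPINA1 (1.62) passed as higher. The summed fibroblast list of 9 genes lay between 116 and 219 CPM at 6 h and between 629.8 and 1254 CPM at 24 h. Its genes did not move together. Under vehicle, COL1A1 was higher at 24 h than at 6 h (log2 2.64), whereas DCN and FAP were lower (log2 -6.95 and -7.21). PDGFRB was at 0.15 and did not pass. The summed epithelial list of 8 genes lay between 1078 and 1249 CPM at 6 h and between 409 and 578 CPM at 24 h. Endothelial, immune and C cell lists summed to at most 2.86 CPM in any library. Hours of culture and anything else that separates the 2 sets of libraries cannot be told apart, and in bulk RNA fewer cells of a type and less RNA per cell cannot be told apart either. KLF9, a direct T3 target that rises with hormone, stood at 0.861 ± 0.0607 CPM with vehicle and 13.7 ± 0.488 CPM under T3 at 6 h. That vehicle level of KLF9 lay near the floor of 3 counts. At 24 h, however, KLF9 stood at 26.1 ± 7.50 CPM in the pair labelled vehicle and 3.07 ± 0.399 CPM in those labelled T3. HR, another target, went from 63.5 ± 7.01 to 109 ± 9.92 CPM at 6 h and stood at 4.09 ± 0.288 and 0.213 ± 0.137 CPM at 24 h, the last on 3 counts. Both genes thus went against the labels at 24 h, and whether those labels were exchanged was not tested. Directions at 24 h refer to the libraries as labelled. With exchanged labels every difference between T3 and vehicle at 24 h would have the opposite sign, and each comparison of 24 h with 6 h would take the other pair of 24 h. The part of any of these features in the differences below was not tested, except for GC content.

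EGFR was the most abundant of the 10 genes in every library, and its level differed little between groups. EGFR (chromosome 7, 55019021 to 55211628, plus strand, GRCh38) stood at 399.7 and 427 CPM with vehicle at 6 h, 326 and 343 CPM under T3 at 6 h, 388 and 456 CPM in the pair labelled vehicle at 24 h and 418 and 448 CPM in those labelled T3 at 24 h. These CPM were scaled by the trimmed mean of M values (TMM). Only the 2 T3 libraries of 6 h lay below all others. Between the vehicle groups of the 2 times the log2 fold change was 0.03 (standard error 0.12, adjusted p = 0.829 in edgeR), with a 95% interval of -0.22 to 0.28. Under T3 it was 0.37 (standard error 0.12, adjusted p = 0.00997 in edgeR). That call was lost when low counts were not filtered, and when either T3 library of 6 h or the second T3 library of 24 h was left out (largest adjusted p in edgeR 0.122).

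A trend with GC content moved with these values. Genes were placed in 5 bins by the GC content of their exons. Under vehicle, the bin poorest in GC had a median log2 fold change of 24 h over 6 h of 0.72 and the richest one of -0.96, and under T3 these were 0.73 and -1.20. With the trends with GC content and length removed, EGFR was at -0.32 under vehicle (edgeR adjusted p = 0.0111) and -0.03 under T3 (edgeR adjusted p = 0.816), so its direction turned in both and, under vehicle, EGFR passed as lower.

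The partner receptors ERBB2 and ERBB3 were both lower in the 24 h libraries. ERBB2 (chromosome 17, 39687914 to 39730426, plus strand) stood at 107 and 91.7 CPM with vehicle and 90.8 and 83.7 CPM under T3 at 6 h, against 64.2 and 75.9 CPM and 39.995 and 52.9 CPM at 24 h in the pairs labelled vehicle and T3. All 4 libraries of 24 h lay below all 4 of 6 h. The log2 fold change of 24 h over 6 h was -0.51 (standard error 0.16, adjusted p = 0.0116 in edgeR) under vehicle and -0.90 (standard error 0.16, adjusted p = 9.60e-05 in edgeR) under T3. With GC content and length removed it was -0.13 (edgeR adjusted p = 0.478) and -0.41 (edgeR adjusted p = 0.0275), and under vehicle the call was also lost without replicate 1 of either vehicle group. ERBB2 shares 5.53% of its exon bases with MIEN1 and 1.88% with PGAP3, both on the opposite strand, and the strand setting of the counting is not given in the sources used here.

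ERBB3 (chromosome 12, 56076799 to 56103505, plus strand), the neuregulin receptor, had the larger difference. It stood at 30.1 and 31.9 CPM with vehicle and 22.4 and 21.7 CPM under T3 at 6 h, and at 9.94 and 8.67 CPM and 7.29 and 6.36 CPM at 24 h. No 24 h library came near the lowest 6 h library. The log2 fold change was -1.74 (standard error 0.25, adjusted p = 9.05e-06 in edgeR) under vehicle and -1.69 (standard error 0.25, adjusted p = 9.88e-06 in edgeR) under T3, and both calls were kept in all 15 alternative settings. Within each time the T3 libraries were the lower ones without overlap, at -0.49 (edgeR adjusted p = 0.218) and -0.44 (edgeR adjusted p = 0.274) on the log2 scale, and neither passed.

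ERBB4, the remaining receptor of the family and not one of the 10, was measured almost only in the 6 h libraries. It had 39 and 19 counts with vehicle and 20 and 44 with T3 at 6 h, against 0 and 3 and 0 and 0 at 24 h. As a share of all gene counts it was 34.8-fold higher at 6 h than at 24 h under vehicle (95% counting interval 11.3 to 174). Under T3 the 6 h level was 35.8-fold the CPM of 3 counts over the 24 h group, which itself had 0. That value leaves out counting error at 6 h. The 95% counting intervals under T3 were 5.80 to 9.62 CPM at 6 h and up to 0.259 CPM at 24 h.

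**Figure D1:**
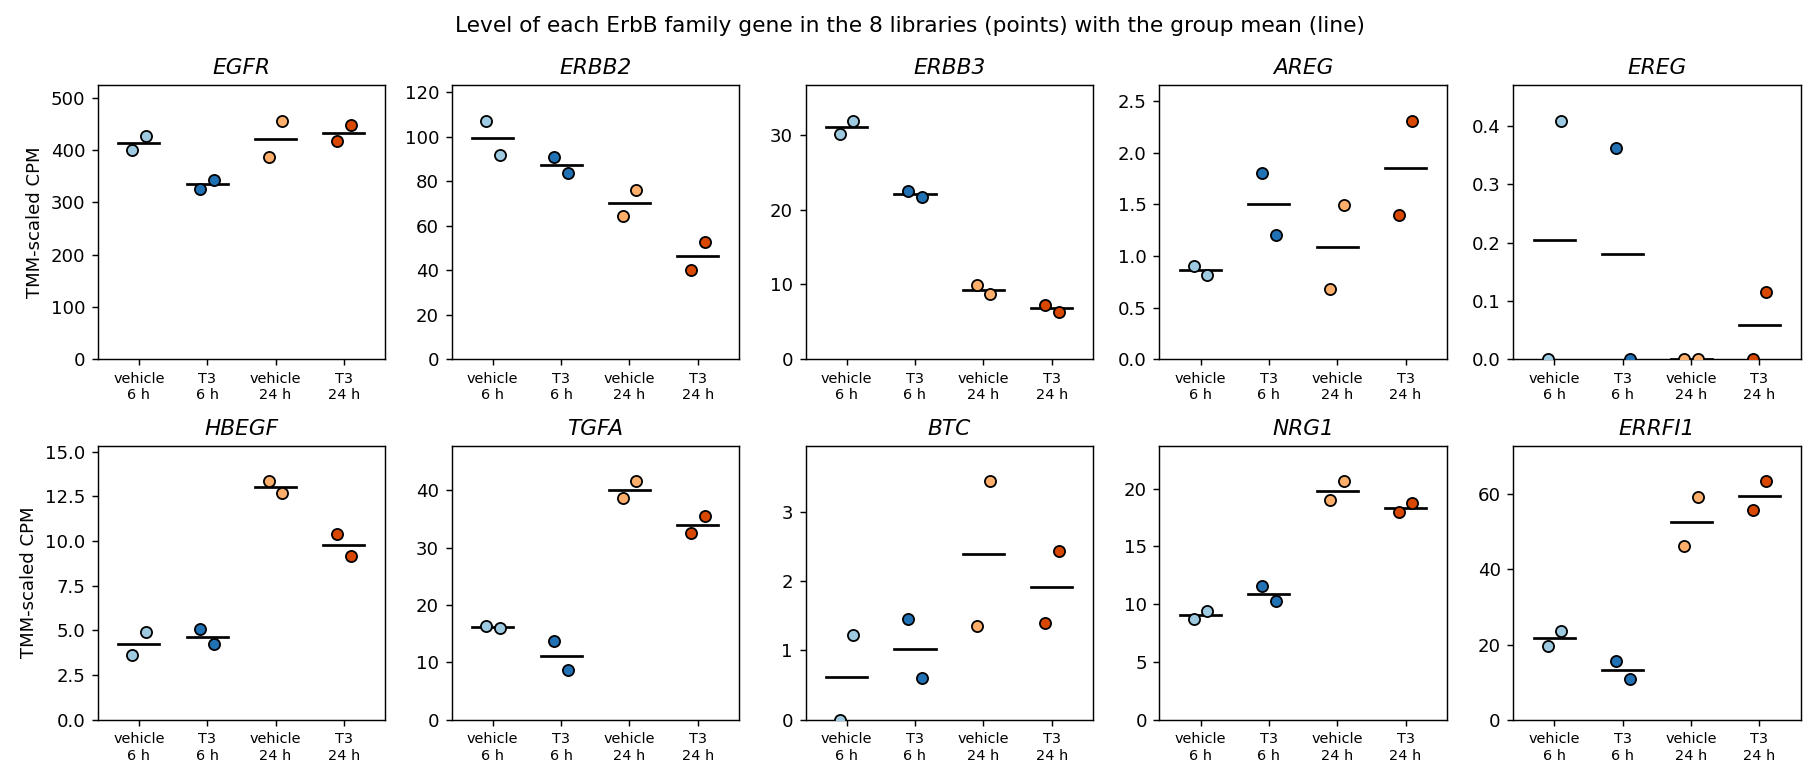
TMM-scaled CPM (vertical axes, each starting at 0) of the 10 genes in the 8 libraries, by group; points are libraries and lines are group means. ERBB2 and ERBB3 lie lower and HBEGF, TGFA, NRG1 and ERRFI1 higher in all 4 libraries of 24 h than in any of 6 h, while EGFR stays between 326 and 456 CPM.

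Counted per kb of exon, which allows genes to be compared, EGFR led every group. Its level was 33.02 ± 1.55 CPM per kb with vehicle and 26.7 ± 0.910 with T3 at 6 h, and 33.7 ± 3.88 and 34.6 ± 1.69 CPM per kb at 24 h (SD, n = 2 each). At 6 h the order after EGFR was ERBB2, ERRFI1, ERBB3, TGFA, HBEGF, NRG1, AREG, BTC and EREG with either treatment. With vehicle, neighbours did not overlap except BTC and EREG. With T3, ERBB3 and TGFA overlapped, as did NRG1 and AREG. At 24 h ERRFI1 and TGFA had passed ERBB2, so that the order began EGFR, ERRFI1, TGFA, ERBB2, HBEGF and NRG1 in both treatments, with no overlap between these neighbours. ERBB3, BTC and AREG followed in the pair labelled vehicle, each overlapping the next. In those labelled T3, AREG came before ERBB3, and ERBB3 overlapped BTC. EREG was last in all 4 groups.

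The receptor makeup differed accordingly. EGFR made up 71.6 ± 2.41% of the CPM per kb of the 3 receptors with vehicle at 6 h and 71.02 ± 1.73% with T3, then 81.2 ± 0.378% and 86.8 ± 1.21% at 24 h (SD, n = 2 each). ERBB3 made up 7.45 ± 0.201% and 6.50 ± 0.211% at 6 h, and 2.51 ± 0.516% and 1.91 ± 0.301% at 24 h. The EGFR share was higher in each of the 4 libraries of 24 h than in any of 6 h, and highest in the 2 labelled T3 at 24 h. These shares follow from the levels above and were not tested separately. They depend on exon lengths from GENCODE 29, which may not be the annotation that was counted.

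The ligands that were well measured stood higher in the 24 h libraries. TGFA (chromosome 2, 70447280 to 70554193, minus strand), which encodes transforming growth factor alpha, was the leading ligand per kb in every library. It stood at 16.3 and 15.96 CPM with vehicle and 13.8 and 8.65 CPM under T3 at 6 h, and at 38.6 and 41.6 CPM and 32.6 and 35.5 CPM in the pairs labelled vehicle and T3 at 24 h. All 4 libraries of 24 h were above all 4 of 6 h. The log2 fold change of 24 h over 6 h was 1.31 (standard error 0.23, adjusted p = 7.79e-05 in edgeR) under vehicle and 1.66 (standard error 0.23, adjusted p = 6.03e-06 in edgeR) under T3, and both calls held in all 15 alternative settings.

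HBEGF (chromosome 5, 140332843 to 140346631, minus strand), which encodes heparin-binding EGF-like growth factor, stood at 3.62 and 4.91 CPM with vehicle and 5.07 and 4.22 CPM under T3 at 6 h. At 24 h it stood at 13.3 and 12.7 CPM in the pair labelled vehicle and 10.4 and 9.14 CPM in those labelled T3. All 24 h libraries were above all 6 h libraries, and the 2 labelled T3 were below the 2 labelled vehicle. The log2 fold change of 24 h over 6 h was 1.63 (standard error 0.36, adjusted p = 8.52e-04 in edgeR) under vehicle, a call kept in all 15 settings. Under T3 it was 1.09 (standard error 0.34, adjusted p = 0.00940 in edgeR), and this call was lost with DESeq2 (DESeq2 adjusted p = 0.0769) and without T3 replicate 2 of 6 h (edgeR adjusted p = 0.115).

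NRG1 (chromosome 8, 31639386 to 32767959, plus strand), the neuregulin gene whose products bind ERBB3 and ERBB4, stood at 8.74 and 9.41 CPM with vehicle and 11.6 and 10.3 CPM under T3 at 6 h, and at 18.98 and 20.6 CPM and 17.98 and 18.7 CPM at 24 h. The 24 h libraries were again the higher ones without overlap. The log2 fold change was 1.13 (standard error 0.27, adjusted p = 0.00128 in edgeR) under vehicle and 0.76 (standard error 0.25, adjusted p = 0.0109 in edgeR) under T3. With GC content and length removed it was 0.54 (edgeR adjusted p = 0.0789) and 0.13 (edgeR adjusted p = 0.651), so neither call was kept. Under T3 the call was also lost with DESeq2 (DESeq2 adjusted p = 0.0887) and without T3 replicate 2 of 6 h (edgeR adjusted p = 0.125). Without these offsets, the ligand NRG1 was higher and its receptors ERBB3 and ERBB4 were lower in the 24 h libraries.

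AREG, EREG and BTC were near or below what the depth can measure. AREG (chromosome 4, 74445134 to 74455009, plus strand), the amphiregulin gene, had 3 and 2 counts with vehicle and 5 and 6 with T3 at 6 h, then 3 and 10 and 9 and 20 at 24 h. Pooled over a group and taken as a share of the gene total, this was 0.841 (95% interval 0.273 to 1.96), 1.30 (95% interval 0.646 to 2.32), 1.21 (95% interval 0.647 to 2.08) and 2.03 (95% interval 1.36 to 2.92) CPM in that order, with exact binomial intervals that cover counting error only. The intervals of all 4 groups overlapped. AREG fell under the filter on low counts. Fitted without that filter it had a log2 difference of T3 over vehicle of 0.80 at 6 h (edgeR adjusted p = 0.901) and 0.69 at 24 h (edgeR adjusted p = 0.750), so no difference was detectable at this depth.

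EREG (chromosome 4, 74365143 to 74388751, plus strand), the epiregulin gene, had 1 count in each of 3 libraries and 0 in the other 5. In the 24 h group labelled vehicle, 0 counts allow up to 0.280 CPM. BTC (chromosome 4, 74744759 to 74794686, minus strand), the betacellulin gene, had 0 and 3 counts with vehicle and 4 and 3 with T3 at 6 h, and 6 and 23 and 9 and 21 at 24 h. Its replicates differed widely, and its log2 fold change of 24 h over 6 h was 2.16 (standard error 1.04, adjusted p = 0.0776 in edgeR) under vehicle and 1.03 (standard error 0.88, adjusted p = 0.304 in edgeR) under T3. Neither passed, although under vehicle BTC passed when the second vehicle library of 6 h or either T3 library of 24 h was left out.

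Summed per kb, the 6 ligands came to 6.24 ± 0.621 CPM with vehicle and 6.07 ± 1.52 CPM under T3 at 6 h, and to 15.7 ± 1.25 and 13.5 ± 0.843 CPM at 24 h (SD, n = 2 each). The sum was thus higher in each 24 h library than in any 6 h library, in both treatments. Its makeup differed less: TGFA held 52.4 ± 5.94% and 36.8 ± 2.74% at 6 h, and 51.7 ± 1.46% and 50.7 ± 0.0484% at 24 h. HBEGF held between 20.7% and 29.9% in single libraries. The share of TGFA was lowest in the 2 libraries with T3 at 6 h.

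**Figure D2:**
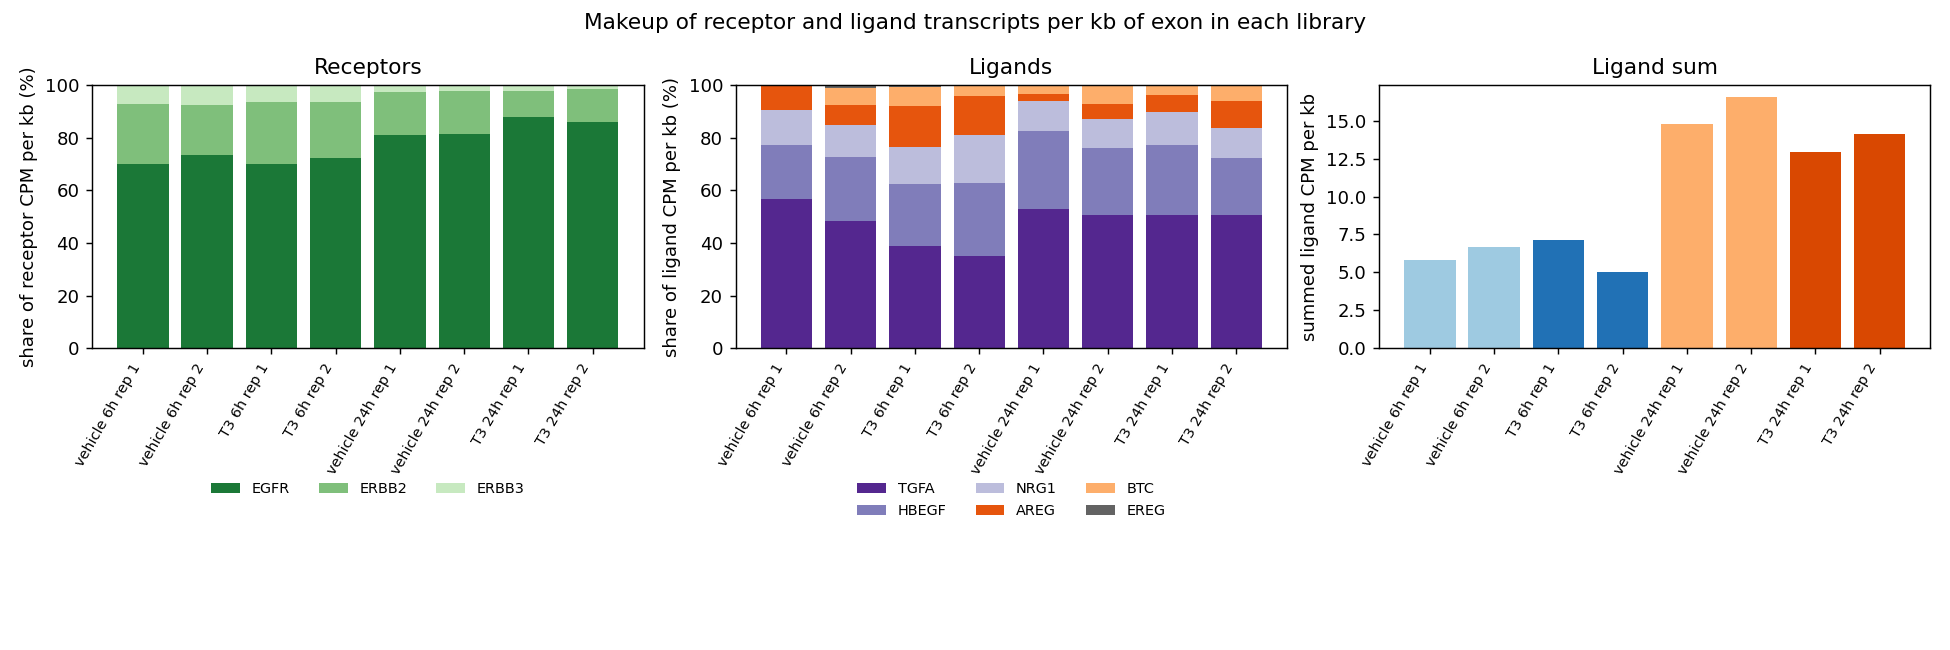
Share of each receptor (left) and each ligand (middle) in the summed CPM per kb of its class, in percent, and the summed ligand CPM per kb (right), in each of the 8 libraries. EGFR takes between 69.8% and 87.7% of the receptor sum, and the ligand sum runs from 4.995 to 16.5 CPM per kb.

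ERRFI1 (chromosome 1, 8004404 to 8026308, minus strand), the receptor inhibitor, was higher at 24 h, and under T3 its difference was the largest of the 8 tested genes. It stood at 19.6 and 23.7 CPM with vehicle and 15.6 and 10.9 CPM under T3 at 6 h. At 24 h it stood at 46.1 and 59.2 CPM in the pair labelled vehicle and 55.8 and 63.4 CPM in those labelled T3. Every 24 h library was above every 6 h library. The log2 fold change was 1.30 (standard error 0.21, adjusted p = 4.72e-05 in edgeR) under vehicle and 2.22 (standard error 0.22, adjusted p = 9.46e-08 in edgeR) under T3, and both calls held in all 15 alternative settings. With GC content and length removed the values were 0.93 and 1.86.

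Taken as counts, 6 of the 8 tested genes passed between the vehicle groups of 24 h and 6 h, 4 higher and 2 lower, in a comparison where 64.5% of all tested genes passed. Between the T3 groups 7 of 8 passed, 5 higher and 2 lower, where 70.4% of all genes passed, and 4 passed when T3 replicate 2 of 6 h was left out. The shares are near the background, so the counts say nothing particular about the family. The median log2 fold change of the 8 genes was 1.22 under vehicle and 0.90 under T3, beside 0.03 and 0.02 over all tested genes. AREG and EREG had too few counts to pass the filter of the reported fit and were not tested in it. Tests were by the edgeR quasi-likelihood method with Benjamini-Hochberg adjustment over 14611 genes and a threshold of 0.05.

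**Figure D3:**
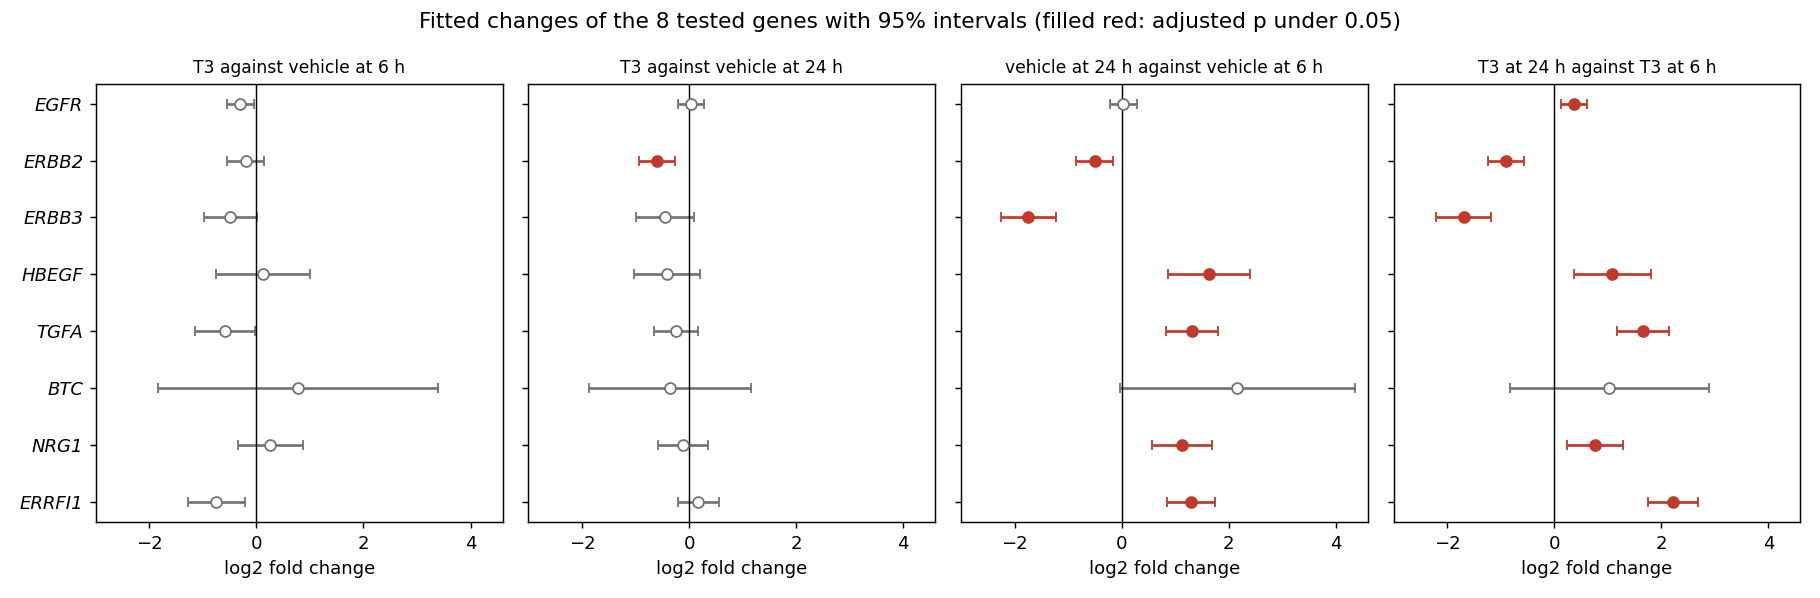
Log2 fold changes (horizontal axes) of the 8 tested genes in 4 comparisons, with 95% intervals; filled red points passed an adjusted p of 0.05. The 2 panels of T3 against vehicle hold 1 called gene, ERBB2 at 24 h, and the 2 panels of 24 h against 6 h hold 6 and 7.

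**Figure D4:**
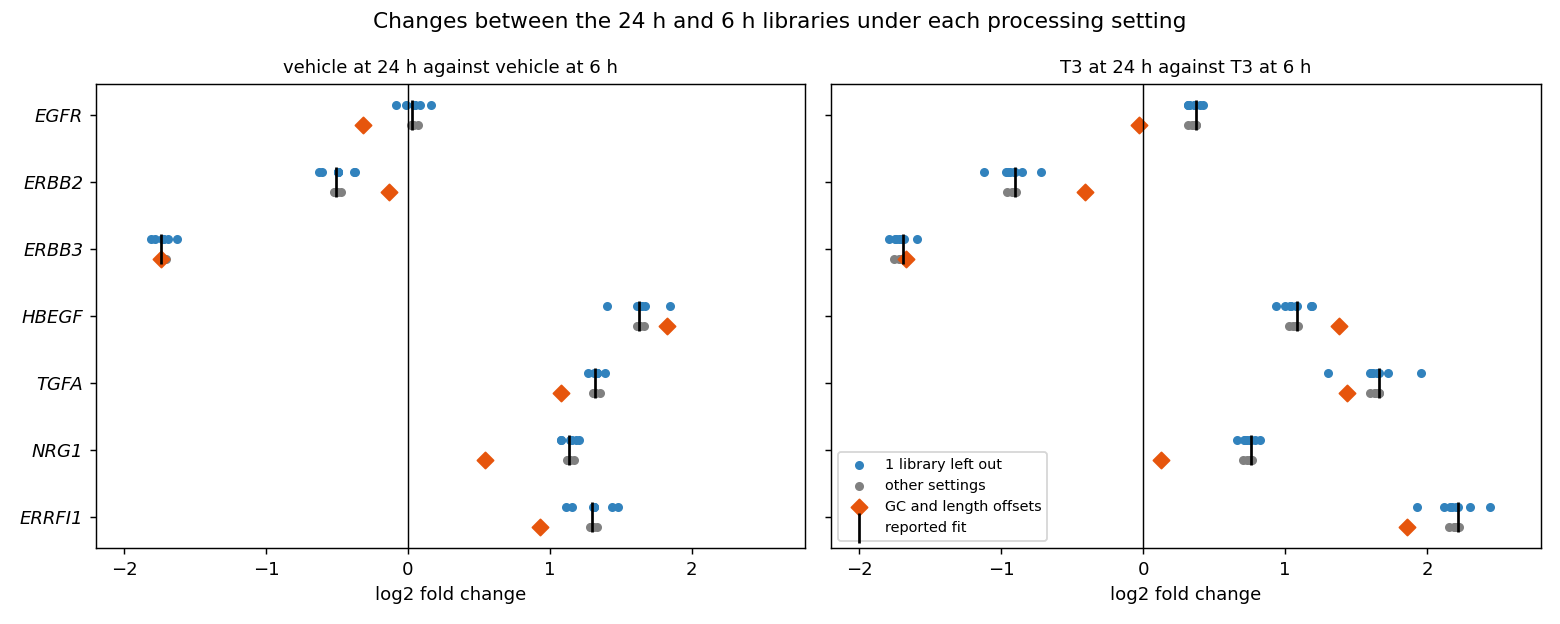
Log2 fold changes of 24 h over 6 h (horizontal axes) for 7 genes under vehicle and under T3, with each setting as a point: 1 library left out, other settings, and removal of the GC and length trends. ERBB3, HBEGF, TGFA and ERRFI1 keep their side of 0 at a distance, while EGFR crosses 0 and ERBB2 and NRG1 move towards it when the trends are removed.

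Between T3 and vehicle within a time, 0 of the 8 tested genes passed at 6 h and 1 at 24 h, counts that are near the background and say nothing particular about the family. At 6 h, where the response of KLF9 matched the labels, 0 passed edgeR or DESeq2, against 7.64% of all genes in edgeR. An unadjusted p under 0.05 was found for 3 genes in edgeR and 2 in DESeq2. In edgeR that count was 1 of 10 without the filter and 4 of 7 with only the 6 h libraries. The share of all genes under this unadjusted threshold was not counted. ERRFI1 was at 19.6 and 23.7 CPM with vehicle and 15.6 and 10.9 CPM with T3, and its log2 fold change was -0.75 (standard error 0.25, adjusted p = 0.0812 in edgeR) with a 95% interval of -1.28 to -0.21. TGFA was at -0.58 (standard error 0.27, adjusted p = 0.199 in edgeR), with an interval of -1.14 to -0.02. EGFR was at -0.30 (standard error 0.12, adjusted p = 0.133 in edgeR), with an interval of -0.56 to -0.05. In these 3 genes, and in ERBB2 and ERBB3, the T3 libraries lay below the vehicle libraries without overlap. For NRG1 they lay above without overlap, and for HBEGF and BTC they overlapped. The share of all genes separated in this way was not counted, so the separation is not a result about the family.

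The choice of libraries in the fit mattered at 6 h. With only the 4 libraries of 6 h, 3 of the 7 genes tested there passed as lower: ERRFI1 (log2 -0.76, edgeR adjusted p = 0.0155), EGFR (log2 -0.31, edgeR adjusted p = 0.0166) and ERBB3 (log2 -0.50, edgeR adjusted p = 0.0484). Many more genes of the whole table passed in that fit too than the 1117 of the reported one. The share of all genes that passed in that fit is not given here, so the 3 calls lack a background. They are not read as a result about the family. ERRFI1 passed too with GC content and length removed (log2 -0.92, edgeR adjusted p = 0.0444). HBEGF at 0.12, with an interval of -0.76 to 1.00, and NRG1 at 0.26, with an interval of -0.35 to 0.87, were on the other side of 0 and did not pass. ERBB2 was at -0.20 on the log2 scale, with an interval of -0.54 to 0.15, and moved to 0.06 with GC content and length removed.

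At 24 h only ERBB2 passed, 1 of 8 tested genes against 13.3% of all genes. It stood at 70.1 ± 8.32 CPM in the pair labelled vehicle and 46.4 ± 9.09 CPM in those labelled T3 (SD, n = 2 each), a log2 fold change of -0.59 (standard error 0.16, adjusted p = 0.0232 in edgeR). At 24 h the median log2 fold change of T3 over vehicle ran from 0.33 in the genes poorest in GC to -0.53 in the richest. The call was lost with GC content and length removed (log2 -0.22, edgeR adjusted p = 0.509), with only the 24 h libraries (edgeR adjusted p = 0.0745), and when either the second vehicle library or the first T3 library of 24 h was left out (edgeR adjusted p = 0.122 and 0.125). For EGFR the log2 fold change was 0.04, with an interval of -0.21 to 0.28, and for ERRFI1 0.17, with an interval of -0.21 to 0.56. HBEGF was at -0.42 (standard error 0.29, adjusted p = 0.374 in edgeR). TGFA, NRG1 and ERBB3 were lower in the pair labelled T3 without overlap and did not pass. The share of all genes separated without overlap was not counted here either.

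The difference between the T3 responses of the 2 times was tested directly, and 0 of 8 genes passed edgeR or DESeq2 against 1.84% of all genes in edgeR (0.849% higher and 0.992% lower), with 1 gene at an unadjusted p under 0.05 in edgeR and 1 in DESeq2. That gene in edgeR was ERRFI1, for which T3 over vehicle was -0.75 at 6 h and 0.17 at 24 h, a difference of 0.92 (standard error 0.31, adjusted p = 0.140 in edgeR). The gene with the next lowest p was EGFR, at 0.34 (standard error 0.17, adjusted p = 0.338 in edgeR). The contrast takes the 24 h labels as they stand and would differ with exchanged labels. The share of all genes with an unadjusted p under 0.05 was not counted for it.

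Genes of ligand shedding, a list that holds proteases, their cofactors and the inhibitor gene TIMP3, were more often higher than lower in the 24 h libraries. Of 8 tested genes 5 were higher and 1 lower under vehicle, and 6 and 1 under T3, against 31.9% higher and 32.6% lower, and 35.1% and 35.2%, of all genes. Their median log2 fold changes were 1.36 and 1.52, beside 0.03 and 0.02 for all genes. ADAM17, the main sheddase of TGFA, AREG and HBEGF, stood at 41.6 and 49.5 CPM with vehicle and 48.1 and 45.7 CPM under T3 at 6 h, and at 132 and 151 and 171 and 169.9 CPM at 24 h, log2 fold changes of 1.64 and 1.87 (edgeR adjusted p = 3.81e-08 and 3.01e-09). ADAM12, another protease of that family, stood at 0.657 ± 0.350 CPM with vehicle at 6 h, on 4 counts, and at 18.2 ± 5.31 CPM at 24 h. TIMP3, whose product inhibits ADAM17, was one of the higher genes counted, at log2 2.03 and 2.21.

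The adaptors and the RAS-MAPK relay changed in both directions. Of 18 genes 9 were higher and 8 lower at 24 h under vehicle, and 9 and 8 under T3, where 31.9% and 32.6%, and 35.1% and 35.2%, of all genes were higher and lower. The lower genes numbered 5 under vehicle without vehicle replicate 1 of 6 h, and 5 under T3 with GC content and length removed. The RAS activators SOS1 and SOS2 were among the higher genes under vehicle (log2 1.66 and 1.80). GAB2, a docking protein for the receptor complex, went the other way, from 113 ± 3.94 to 5.88 ± 2.25 CPM under vehicle. Of 19 genes of receptor inhibition and turnover 10 were higher and 3 lower under vehicle, and 10 and 6 under T3, against the same shares of all genes. With GC content and length removed these became 7 and 4 under vehicle and 7 and 7 under T3. SOCS4, whose product promotes loss of EGFR, went from 32.2 ± 3.71 to 139 ± 3.36 CPM under vehicle, and EPN1, which encodes an endocytic adaptor, from 197 ± 16.6 to 51.5 ± 0.939 CPM (edgeR adjusted p = 1.71e-09 and 3.92e-09).

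Response genes of EGFR and MAPK signalling were higher more often than lower at 24 h. Of 17 tested genes 10 were higher and 3 lower under vehicle, and 12 and 2 under T3, where 31.9% and 32.6%, and 35.1% and 35.2%, of all genes were higher and lower. The median log2 fold changes were 0.59 and 1.34, beside 0.03 and 0.02 over all genes. Under vehicle 1 gene was lower, in place of 3, without vehicle replicate 2 of 6 h or either vehicle library of 24 h. SPRY4, a feedback inhibitor of the relay, stood at 0.915 ± 0.442 and 6.41 ± 1.72 CPM under vehicle, the first on 5 counts, and MYC, a proliferation gene that went the other way, at 1327 ± 35.7 and 41.5 ± 4.07 CPM. FOS was lower under vehicle at log2 -3.10, a call lost without vehicle replicate 2 of 6 h or either vehicle library of 24 h (highest edgeR adjusted p = 0.0704).

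With T3 at 6 h, 3 of the 17 response genes fell and 0 rose, against 3.86% lower and 3.78% higher of all genes. Over all genes 49.5% of the calls were higher, and 34.0% with GC content and length removed. The list's median log2 fold change was -0.58 beside -0.02. The count of lower genes ran from 1 to 8 over the settings. ETV5, a transcription factor gene induced by MAPK signalling, fell from 33.5 and 38.9 CPM with vehicle to 10.1 and 11.7 CPM with T3. Its log2 fold change was -1.70 (standard error 0.20, adjusted p = 9.76e-05 in edgeR), and it held in all 15 alternative settings. At 24 h it stood at 107 and 114 CPM and 117 and 130.2 CPM, and the difference between the responses was 1.86 (standard error 0.24, adjusted p = 6.15e-04 in edgeR) and was kept in all 14 settings in which it was fitted. PHLDA1 fell at 6 h by 1.17 on the log2 scale (edgeR adjusted p = 0.0155) and was higher in the pair labelled T3 at 24 h by 0.78 (edgeR adjusted p = 0.0122). The 6 h call of PHLDA1 was lost without any 1 of the 6 h libraries, and that of 24 h without replicate 2 of either 24 h group and with GC content and length removed. IER3 passed at 6 h as well, at -0.64 (standard error 0.17, adjusted p = 0.0327 in edgeR), and no longer passed when any 1 library of 6 h was left out, with DESeq2, without the filter and with GC content and length removed.

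In the libraries labelled T3 at 24 h, genes of the relay that passed were lower: MAPK3, an extracellular signal-regulated kinase gene, fell by 0.88 and MAP2K2, the gene of a kinase upstream of it, fell by 0.80 on the log2 scale (edgeR adjusted p = 0.00673 and 0.00662). Both lost their calls with GC content and length removed, as did every called gene of the 4 pathway lists at 24 h. Of the 18 relay genes 2 were lower and 0 higher, against 7.75% lower and 5.58% higher of all genes. Of the 17 response genes 2 were higher and 3 lower, and the largest of these differences was that of FOSL1, an AP-1 subunit gene, which fell by 1.04 (edgeR adjusted p = 0.00203).

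Of the remaining ligand genes, all but NRG4 were scarce. NRG4, a neuregulin that binds ERBB4, had 31 and 14 counts with vehicle and 24 and 76 with T3 at 6 h. At 24 h it had 1 and 3 in the pair labelled vehicle and 11 and 5 in those labelled T3. NRG4 passed as lower at 24 h under vehicle (log2 -4.33, edgeR adjusted p = 4.93e-05) and under T3 (log2 -3.46, edgeR adjusted p = 2.48e-05). This direction was that of ERBB4 and opposite to that of TGFA, HBEGF and NRG1. EGF had at most 1 count in a 6 h library and between 4 and 12 in a 24 h library. NRG2 and EPGN had at most 8 counts in any library, and NRG3 had 0 in all 8.

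The genes whose log2 CPM followed a member most closely over the 8 libraries were sought among 11578 genes at 5 CPM or more. For EGFR they were TMBIM1 (r = 0.959), KIF13B (r = 0.942), ETV4 (r = 0.929), and 18 genes had r above 0.9. For ERBB2, IDUA (r = 0.993) and ZNF646 (r = 0.991) were among them, with 826 genes above 0.9, and for ERRFI1 RP11-941F15.1 (r = 0.997), ST20 (r = 0.994), TMOD2 (r = 0.994), with 1696 genes above 0.9. These values describe the 8 libraries, which mostly share the split between 6 h and 24 h, and AREG had too few counts to be placed.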

How the data were processed

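The deposited values were whole-number counts of reads per gene, 1 table for each of the 8 libraries. Per the submitters' processing notes, CASAVA 1.7, STAR 2.7, HTSeq and DESeq2 were used with build hg38. The annotation release and strand setting: not given in the sources used here. Each table had 56832 gene rows and 5 summary rows, and the latter were left out of library sizes. Genes held 12.9% to 24.4% of the reads in a table, and reads without a unique place held 47.6% to 67.4%.

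Counts were filtered by expression (filterByExpr), scaled by TMM and fitted in edgeR 4.0.16 (R 4.3.3) with 1 coefficient for each of the 4 groups. This left 4 residual degrees of freedom. Robust quasi-likelihood F tests were adjusted by Benjamini-Hochberg over 14611 genes, with a threshold of 0.05. The biological coefficient of variation was 13.1%. Counts were also simulated for the comparison of T3 with vehicle at 6 h (14019 genes). In them, 70% of 2-fold and 95% of 4-fold changes were recovered, and 4.07% of calls were false. These rates describe the simulated counts and were not split by expression level. They are not rates for scarce genes such as AREG, EREG and BTC. Whether they hold for the real libraries, which carry a trend with GC content, was not tested. Gene positions, exon lengths and GC content came from GENCODE 29 by symbol, which matched 29500 rows, and promoters from RefSeq (GRCh38.p14).

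The 10 genes, the pathway lists and the tests were chosen with earlier results of these data known. From each list, up to 3 called genes with the largest change in a comparison were named. KLF9, HR and marker genes were named as checks, and for EGFR, ERBB2 and ERRFI1 the 3 genes with the highest correlation were sought. A few genes that these rules name are not reported here. Alternatives were RLE scaling, DESeq2 1.42.0, no filter, a fixed filter (1 CPM in 4 libraries) and the replicate number as a block. Others were offsets for GC content and length, only the libraries compared, and each library left out. The fixed filter kept 9 of the 10 genes, against 8 in the reported fit.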

Additional observations from a re-analysis of the deposited data

How the results depend on the processing

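Of 14 calls among the 10 genes, 8 were kept in all 15 alternative settings and 6 were lost in some. Of 26 values not called, 5 passed in some setting (EGFR under vehicle in the opposite direction), and 11 of 40 values changed sign in some setting. Offsets for GC content and length gave 1 called member for T3 at 6 h (459 of all genes, against 1117) and 0 for T3 at 24 h (169, against 1948). They also turned ERBB2 at 6 h to 0.055 and EGFR at 24 h over 6 h to -0.32 under vehicle and -0.028 under T3. The share of calls that were higher in the difference of responses went from 46.1% to 59.2% with these offsets. With only the libraries compared, 3 members and 2898 genes passed at 6 h and 0 members and 702 genes at 24 h. DESeq2 called 1184 genes for T3 at 24 h. Without a filter, 674 genes passed for the difference of responses, against 269, and that of ERBB3 was -0.050. The cause of these shifts was not tested.

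Leaving out 1 library at a time gave 131 to 1681 genes for T3 at 6 h, 0 to 1 members and 1128 to 2056 genes for T3 at 24 h, 4 to 7 members between the T3 groups, and 49 to 750 genes for the difference of responses. Log2 fold changes that changed sign ranged as follows. At 6 h HBEGF ran from -0.10 to 0.37 and BTC from -0.36 to 5.41. At 24 h EGFR ran from -0.11 to 0.15, ERRFI1 from -0.023 to 0.37 and BTC from -0.86 to 0.50. Between the vehicle groups EGFR ran from -0.082 to 0.16. For the difference of responses ERBB3 ran from -0.071 to 0.13, TGFA from -0.022 to 0.63 and BTC from -5.78 to 0.0033. Where 1 library was left in a group, it was assumed to vary like the other groups.

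Libraries with the same replicate number did not deviate together (r between -0.0437 and 0.0972), so the numbers do not pair them. With a replicate block, 0, 1, 6, 7 and 0 members passed in the 5 comparisons, and 1232, 2057, 9350, 10207 and 321 of all genes. The block changed no call among the members. Depth limits AREG, EREG and BTC, which had at most 23 counts in a library.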
